A study of Mus musculus with 4 samples.

Results

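The 10 genes Olig1, Olig2, Mnx1, Nkx6-1, Nkx2-2, Foxa2, En1, Evx1, Vsx1 and Sim1 encode transcription factors that pattern the ventral neural tube or mark the neurons born there. They were chosen by name from 18193 genes with a probe set of a single symbol, and each was read from its brightest probe set over the 4 arrays. RNA was compared between 2 populations of GFP-sorted cells from mouse neural tube at E10.5, dissected between the limb levels, with 2 biological replicates of each. Atoh1-GFP embryos carry a bacterial artificial chromosome that places GFP in the Atoh1 lineage, the source of dorsal interneuron 1 (dI1). dNeurog1-GFP embryos carry a Neurog1 enhancer that drives GFP in the neighbouring dorsal cells, the source of dorsal interneuron 2 (dI2). Both lines were on a mixed B6SJLF1 and ICR background, and the labels name no mutation in either. GFP follows the transgene and not the endogenous gene, and no label gives the number of embryos pooled. The labels call the samples GFP sorted without naming the fraction, and they are read here as GFP-positive.

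Sonic hedgehog spreads from the notochord and floor plate and divides the ventral neural tube into progenitor domains, from p3 next to the floor plate to p0 at the middle. Each domain holds its own set of homeodomain and basic helix-loop-helix factors, which repress those of the neighbouring domain. The domains then give rise to V3 neurons, motor neurons and V2, V1 and V0 neurons in order from ventral to dorsal. None of the 10 genes is a classical marker of dI1 or dI2, and their signals here are those of 2 dorsal sorts. Whether a signal came from ventral cells, from the dorsal cells themselves or from probe background was not tested.

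Upstream sequence of the 3 members with the largest differences is shown because Atoh1, Neurog1 and the Olig factors all bind the E-box, CANNTG. The RefSeq promoter table of build GRCm38.p6 held 9 of the 10 members, and the 250 bases before each start were read. Olig2 lies at chr16:91225300-91225549 on the plus strand, Mnx1 at chr5:29478471-29478720 on the minus strand and Evx1 at chr6:52313248-52313497 on the plus strand. Each is printed 5′ to 3′ on the gene's own strand, with every CANNTG in capitals.
Olig2: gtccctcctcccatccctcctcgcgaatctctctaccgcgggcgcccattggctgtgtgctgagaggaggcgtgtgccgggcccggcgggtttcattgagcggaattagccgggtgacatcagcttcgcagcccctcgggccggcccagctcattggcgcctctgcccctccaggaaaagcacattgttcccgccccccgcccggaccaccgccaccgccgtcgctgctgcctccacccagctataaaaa
Mnx1: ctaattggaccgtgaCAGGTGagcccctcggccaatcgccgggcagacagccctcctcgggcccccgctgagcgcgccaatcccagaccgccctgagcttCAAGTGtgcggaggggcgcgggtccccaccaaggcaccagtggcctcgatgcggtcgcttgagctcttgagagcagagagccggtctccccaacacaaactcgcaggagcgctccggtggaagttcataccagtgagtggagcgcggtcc
Evx1: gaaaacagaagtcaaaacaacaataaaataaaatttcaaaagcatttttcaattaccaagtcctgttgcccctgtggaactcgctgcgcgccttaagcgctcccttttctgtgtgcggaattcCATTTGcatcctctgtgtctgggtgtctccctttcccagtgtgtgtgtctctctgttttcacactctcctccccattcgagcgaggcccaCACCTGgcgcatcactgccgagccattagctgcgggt
The Mnx1 and Evx1 windows each held 2 E-boxes and the Olig2 window held 0. Over the 11 windows of the 9 matched members 7 held at least 1, against 66.2% of 32841 windows of the same length. The homeodomain motif TAATTA and the Gli motif GACCACCCA, searched on both strands, were in 0 of the 11 windows, against 4.84% and 0.225% of all windows. CANNTG and TAATTA read the same on both strands and cannot share a site, and a match or its absence describes only the letters of the window.

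The values are MAS5 signals on a linear scale, a summary of the probes of each probe set. As deposited, the arrays had trimmed means of 250.001 for both replicate 1 arrays and 500.003 for both replicate 2 arrays, with 2% left out at each end. All arrays were therefore set to one trimmed mean of 500 here, and signals are on that scale. After scaling, the median signals were 138 and 115 on replicate 1 of Atoh1-GFP and dNeurog1-GFP respectively, compared with 76.0 and 75.4 on replicate 2, so dim probe sets stayed brighter on the replicate 1 arrays. Differences subtract dNeurog1-GFP from Atoh1-GFP after log2(signal + 32), which understates the change of dim genes. They were tested with limma over 12740 genes, at an adjusted p under 0.05. Of these, 28 passed, 16 toward Atoh1-GFP and 12 toward dNeurog1-GFP. As deposited the split was 1 and 12, and on one 75th percentile it was 7 and 11. The dI1 and dI2 markers followed the labels: 4 of 5 dI1 markers passed, all higher in Atoh1-GFP cells, and 3 of 5 dI2 markers passed, all higher in dNeurog1-GFP cells. Atoh1 itself had 21412 and 19675 in Atoh1-GFP cells against 1771 and 1861, and Neurog1 had 172 and 176 against 1388 and 2469.

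Of the 10 ventral factors, 7 had a lower and 3 a higher mean in Atoh1-GFP than in dNeurog1-GFP cells. Of the 12740 genes tested, 6275 were lower and 6465 higher. Among the members 0 passed the limma threshold over all genes, where 0.22% of genes passed. At an unadjusted p under 0.05, 4 of the 10 counted, against 8.59% of all genes: Olig2, Mnx1 and Nkx6-1, lower in Atoh1-GFP cells, and Evx1, higher there. The replicate number shares its scaling target between the populations and was also fitted as a block, and then 1 member, Olig2, passed, against 6.51% of genes. The groups did not overlap for 6 members, against 34.7% of genes, with dNeurog1-GFP above for 4 (18.8% of genes) and Atoh1-GFP above for 2 (15.9%). The members' median difference was -0.59, against 0.01 over all genes tested, and it was 0.03 for replicate 1 alone and -1.03 for replicate 2 alone. A difference of -1 or below was found for 1 member, Olig2, within replicate 1 (2.73% of genes) and for 5, namely Olig1, Olig2, Mnx1, Nkx6-1 and En1, within replicate 2 (2.97% of genes). In a sorted population a smaller share of cells with a transcript and less of it per cell cannot be told apart.

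**Figure D1:**
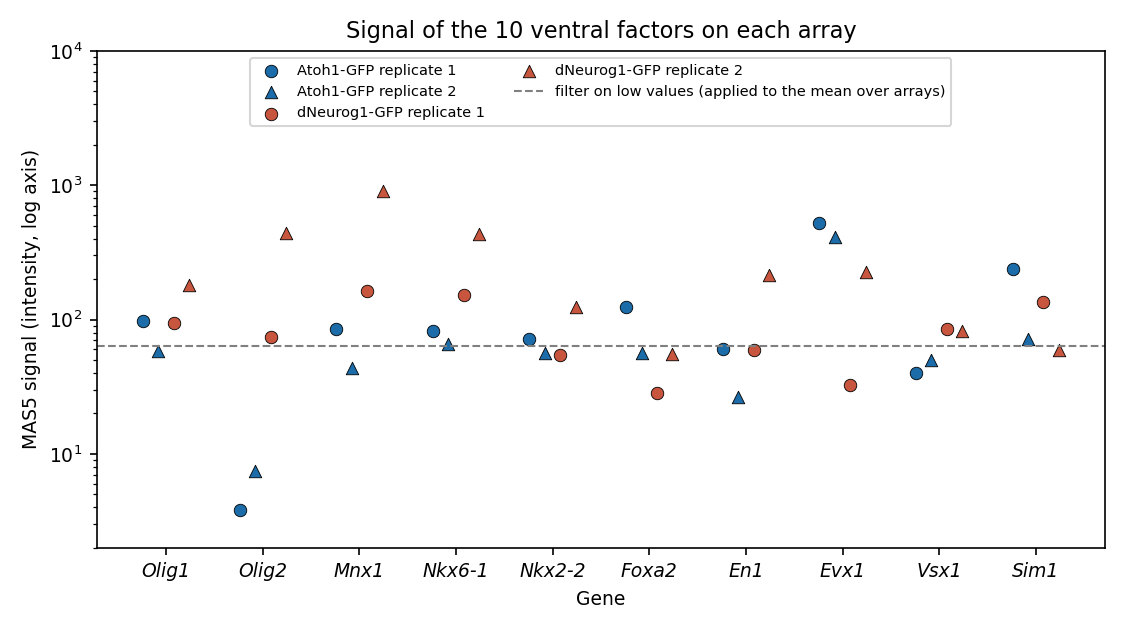
MAS5 signal of each of the 10 genes (log axis) on each of the 4 arrays after scaling to one trimmed mean; colour gives the population, the symbol gives the replicate, and the dashed line is the filter value of 63.5 that a gene's mean had to reach. The dNeurog1-GFP replicate 2 array (red triangles) is the highest for 6 of the 10 genes.

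Olig2 and Olig1 are neighbouring genes for basic helix-loop-helix factors, and Olig2 specifies the motor neuron progenitor domain, pMN. Olig2 read 3.82 and 7.44 on replicates 1 and 2 of the Atoh1-GFP sort, compared with 73.6 and 443 for dNeurog1-GFP. Both Atoh1-GFP arrays thus lay far below the filter value of 63.5 and both dNeurog1-GFP arrays above it, with the dNeurog1-GFP arrays 6.01-fold apart from each other. The log2 difference was -2.57 (standard error 0.81, 95% interval -4.49 to -0.66, limma adjusted p = 0.37), with -1.56 within replicate 1 and -3.59 within replicate 2. Olig2 was the member that differed by at least 1 log2 unit toward dNeurog1-GFP within both replicate numbers, as 1.15% of all genes did. With the replicate block its limma adjusted p was 0.038 (standard error 0.49), and on the deposited scale it was 8.0e-05. The deposited-scale fit took an infinite prior on the spread, and 1 of the 13 genes it called was among the 28. Without the dNeurog1-GFP replicate 2 array the difference was -1.49, and without Atoh1-GFP replicate 1 or Atoh1-GFP replicate 2 it passed at adjusted p = 0.014 and 0.031.

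Olig1 read 98.2 and 57.9 in Atoh1-GFP cells against 94.2 and 179.8 in dNeurog1-GFP cells. The replicate 1 arrays were nearly equal, and the groups overlapped. This gave a log2 difference of -0.60 (standard error 0.49, 95% interval -1.76 to 0.57), with 0.05 within replicate 1 and -1.24 within replicate 2.

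Mnx1 (also called Hb9) is a homeodomain factor of postmitotic motor neurons. Its signals were 85.1 and 43.6 in Atoh1-GFP cells against 164 and 910.4 in dNeurog1-GFP cells. The groups did not overlap, and the replicate 2 array of dNeurog1-GFP cells was 5.54-fold above replicate 1. The log2 difference was -2.19 (standard error 0.71, 95% interval -3.87 to -0.51, limma adjusted p = 0.39; 0.11 with the block), made up of -0.74 within replicate 1 and -3.64 within replicate 2. Without dNeurog1-GFP replicate 2 it was -1.06. It passed when any one of the other arrays was left out, from -1.88 without Atoh1-GFP replicate 2 to -3.32 without dNeurog1-GFP replicate 1.

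Nkx6-1, a homeodomain factor of the p3, pMN and p2 progenitors that is needed for motor neurons, had 82.2 and 66.2 in Atoh1-GFP cells against 152 and 433 in dNeurog1-GFP cells. All 4 arrays were at or above the filter value and the groups did not overlap. The log2 difference was -1.47 (standard error 0.51, 95% interval -2.67 to -0.26, limma adjusted p = 0.43; 0.089 with the block), with -0.69 within replicate 1 and -2.24 within replicate 2. Without dNeurog1-GFP replicate 2 it was -0.80.

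Nkx2-2 is the homeodomain factor of p3 progenitors, and Foxa2 the forkhead factor of the floor plate and notochord. Nkx2-2 read 72.0 and 56.5 in Atoh1-GFP cells against 54.2 and 124 in dNeurog1-GFP cells. The groups overlapped, with the replicate 2 array of dNeurog1-GFP cells alone above 100. Its log2 difference was -0.27 (standard error 0.56, 95% interval -1.60 to 1.05), and it turned to 0.15 without dNeurog1-GFP replicate 2. Foxa2 had 123 and 56.2 in Atoh1-GFP cells against 28.3 and 55.7 in dNeurog1-GFP cells. Its groups did not overlap, though the replicate 2 arrays were nearly equal, and 1 of the 4 arrays was at or above the filter value. The difference was 0.69 log2 units (standard error 0.62, 95% interval -0.78 to 2.15), with 1.36 within replicate 1 and 0.01 within replicate 2, and it was 0.28 without Atoh1-GFP replicate 1. Markers of some other tissues were also higher in the Atoh1-GFP means. The 9 mesenchyme and muscle markers were divided, with 5 positive and 4 negative differences. Their median was 0.10, or 0.71 for replicate 1 and -0.44 for replicate 2. The gut and notochord list held 5 markers, and T and Noto, its notochord genes, were not measured. The 3 that were, Sox17, Cldn6 and Epcam, all had a positive difference. Their median difference was 0.91 on the replicate 1 arrays and 0.07 on the replicate 2 arrays. Their summed signal was 742 and 282 in Atoh1-GFP cells against 359 and 286 in dNeurog1-GFP cells, with no marker at 0 and a lowest signal of 68.2. All 4 endothelial markers (summed signal 1120 and 393 against 432 and 318, lowest 11.1) and all 5 heart markers (737 and 1899 against 209 and 408, lowest 19.8) also had a positive difference. By limma 0 of the 12 gut and notochord, endothelial and heart markers passed and 2, both heart markers, had an unadjusted p under 0.05. The 3 tested blood markers also had a positive difference, with a median of 1.46. By limma 0 of these 3 passed, and all 3 had an unadjusted p under 0.05, against 8.59% of all genes. Myl7, a heart myosin light chain, passed with the block (adjusted p = 0.039). The part of these tissues in the Foxa2 signal was not tested. Neither Nkx2-2 nor Foxa2 passed in any setting in which it was tested, and the intervals leave room for differences of over 1 log2 unit for both.

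Evx1, the even-skipped homeodomain factor of V0 neurons, was the member with the largest difference toward Atoh1-GFP cells. It read 524 and 411 in Atoh1-GFP cells against 32.6 and 227 in dNeurog1-GFP cells. Both Atoh1-GFP arrays lay above both dNeurog1-GFP arrays, and the dNeurog1-GFP arrays were 6.96-fold apart. The log2 difference was 1.94 (standard error 0.62, 95% interval 0.48 to 3.40, limma adjusted p = 0.37; 0.089 with the block), with 3.10 within replicate 1 and 0.78 within replicate 2. Without dNeurog1-GFP replicate 2 it was 2.94 and passed (adjusted p = 1.5e-05), and without dNeurog1-GFP replicate 1 it was 0.94 and did not. It also passed without Atoh1-GFP replicate 1 (1.78) or Atoh1-GFP replicate 2 (2.10). Its paralogue Evx2, another V0 factor, had 123 and 49.4 against 172 and 56.4, with replicate 1 the higher in both populations.

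En1, the engrailed homeodomain factor of V1 neurons, read 60.1 and 26.6 in Atoh1-GFP cells against 59.4 and 215 in dNeurog1-GFP cells. The replicate 1 arrays differed by 0.01 log2 units, and the dNeurog1-GFP replicate 2 array alone reached the filter value. En1 thus differed by -1.03 log2 units (standard error 0.66, 95% interval -2.60 to 0.53, limma adjusted p = 0.86), with -2.08 within replicate 2, and it was -0.31 without dNeurog1-GFP replicate 2.

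Vsx1, a paired-type homeodomain factor expressed in V2 precursors, had 40.04 and 49.7 in Atoh1-GFP cells against 85.2 and 82.1 in dNeurog1-GFP cells. The groups did not overlap, the replicates lay close together, and 2 of the 4 arrays were at or above the filter value. Its log2 difference of -0.59 (standard error 0.55, 95% interval -1.90 to 0.72) was similar within the replicate numbers, at -0.70 and -0.48. A second Vsx1 probe set read between 3.95 and 10.01 on all arrays. Sim1, the basic helix-loop-helix PAS factor of V3 neurons, had 237 and 71.2 in Atoh1-GFP cells against 135 and 59.8 in dNeurog1-GFP cells. The replicate 1 array was the higher in both populations, and the groups overlapped. Its log2 difference was 0.43 (standard error 0.60, 95% interval -0.98 to 1.84), and its second probe set, with 114 and 41.2 against 77.3 and 128, gave -0.36.

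**Figure D2:**
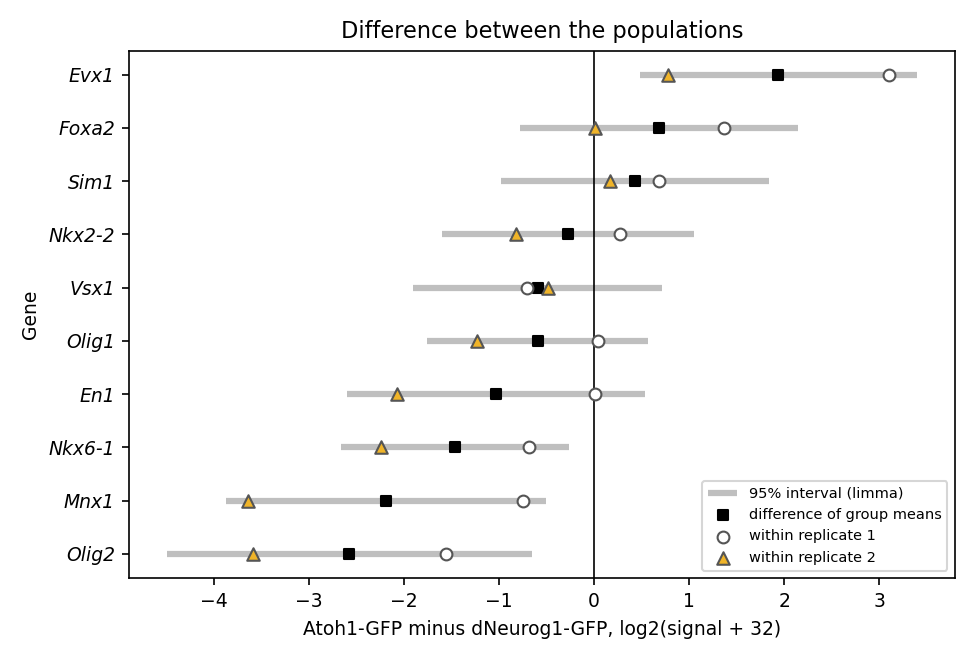
Log2 difference, Atoh1-GFP minus dNeurog1-GFP, of each of the 10 genes: black squares are differences of the group means (2 arrays each), grey bars their 95% limma intervals, circles and triangles the differences within the replicate 1 and replicate 2 arrays. The interval lies below 0 for Olig2, Mnx1 and Nkx6-1 and above 0 for Evx1, before any adjustment over genes.

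For 6 of the 10 genes the dNeurog1-GFP replicates differed from each other by more than the populations did, a share near the 60.2% of all genes. The dNeurog1-GFP replicate 2 array was the brightest of the 4 for 6 members, against 24% of all genes. On the dNeurog1-GFP replicate 2 array, 8 of the 10 members were higher than on replicate 1, against 6699 of the 12740 genes tested. Of the members, 5 (Olig2, Mnx1, Nkx6-1, En1 and Evx1) were higher there by at least 1 log2 unit, against 2.66% of all genes. These differences were 2.26 for Mnx1, 2.17 for Olig2 and 2.00 for Evx1 on the log2(signal + 32) scale, an order that the signal ratios given above reverse. The median over the 10 members was 1.10, against 0.03 over all genes. Between the Atoh1-GFP arrays 0 members were higher by 1 log2 unit on replicate 2 and 1, Sim1, was lower by that much, as 2.68% and 8.19% of all genes were. The summed signal of the 10 members was 879 and 2730 in dNeurog1-GFP cells and 1326 and 847 in Atoh1-GFP cells.

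Some other gene lists were also higher on the dNeurog1-GFP replicate 2 array than on dNeurog1-GFP replicate 1, and others were not. Of the dI2 markers 4 of 5 were higher there (median difference 0.63), though 0 by at least 1 log2 unit. Of the dI1 markers 2 of 5 were higher (median -0.40), 1 by at least that much. Hox genes of paralogue groups 9 to 11, which are used at thoracic and more caudal levels of the spinal cord, were chosen after their values were seen, and all 8 that were tested were higher on dNeurog1-GFP replicate 2 than on replicate 1, 5 by at least 1 log2 unit. Hoxc10 had 114 and 1047 on the dNeurog1-GFP arrays and 112 and 302 on the Atoh1-GFP arrays, and Hoxd10 had 90.2 and 805 against 113 and 139. The summed signal of the 9 measured Hox genes was 8053 and 17508 in dNeurog1-GFP cells and 11090 and 20290 in Atoh1-GFP cells. Of the 9 mesenchyme and muscle markers, 7 were higher on dNeurog1-GFP replicate 2 than on replicate 1, 5 by at least 1 log2 unit. Their summed signal was 2914 and 6866 in dNeurog1-GFP and 5738 and 4084 in Atoh1-GFP cells, with no marker at 0 and a lowest signal of 59.6. All 3 tested blood markers were also higher by at least that much on dNeurog1-GFP replicate 2, and the summed signal of the 4 measured ones was 7725 and 22822, against 30439 and 31542 in Atoh1-GFP cells. The 3 Y-linked genes measured, likewise chosen after their values were seen, had 1.88 to 21.0 on dNeurog1-GFP replicate 1 and 348 to 968 on replicate 2, against 465 to 795 and 354 to 851 on the Atoh1-GFP arrays. For these genes dNeurog1-GFP replicate 1 was the array that stood apart. Of the endothelial markers 1 of 4 was higher on dNeurog1-GFP replicate 2 than on replicate 1 (median difference -0.43). For gut and notochord, where T and Noto were not measured, it was 1 of 3 (median -0.38). For sensory ganglion and neural crest it was 1 of 2 (median 0.16), Pou4f1 and not Sox10. In these 3 lists 0 markers were higher by at least 1 log2 unit. Of the heart markers 3 of 5 were higher (median 0.04), 2 by at least 1 log2 unit, against 2.66% of all genes. The part of axial level, other tissue or the sex of the embryos in the members' signals was not tested.

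**Figure D3:**
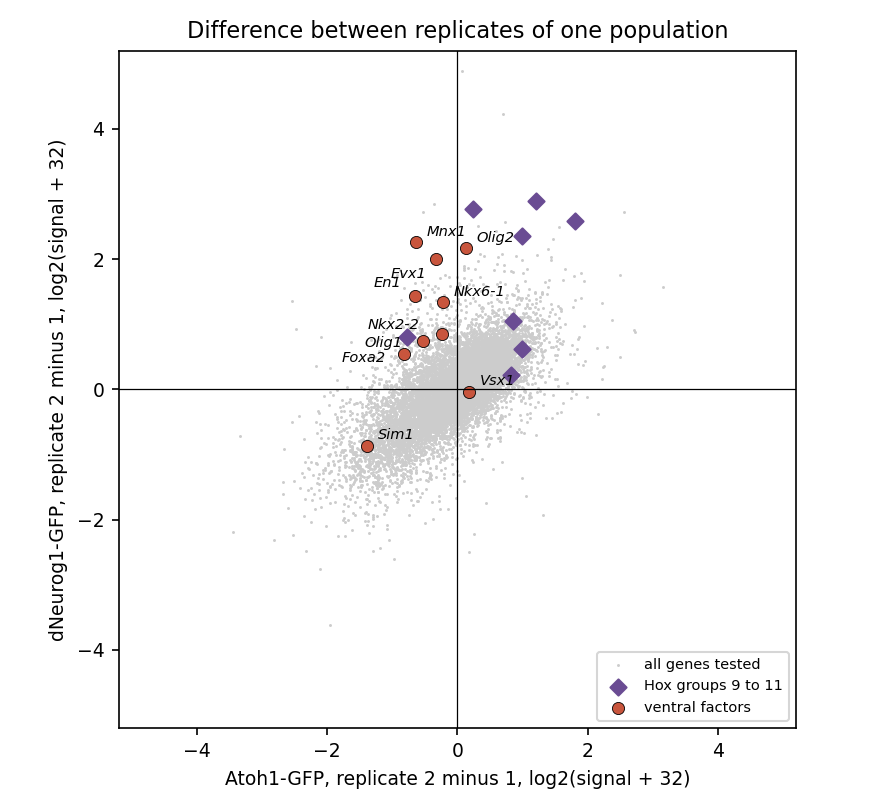
Difference between replicate 2 and replicate 1 within Atoh1-GFP cells (x axis) and within dNeurog1-GFP cells (y axis), in log2 units, for the 10 ventral factors (red), the tested Hox genes of groups 9 to 11 (purple) and all 12740 genes tested (grey). Olig2, Mnx1, Nkx6-1, En1 and Evx1 lie at or above 1 on the y axis and within 1 of 0 on the x axis.

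Patterns over the 4 arrays were compared by the root mean square distance between mean-centred log2 values, with the 2 nearest genes taken for each member whose range was at least 1 log2 unit. Olig2 was nearest to Isl1 (0.32) and Mnx1 (0.33), and Mnx1 to Olig2 and Isl1 (0.36). Isl1, a LIM-homeodomain factor of motor neurons and of dI3 neurons, had 640 and 566 in Atoh1-GFP cells against 1946 and 5163 in dNeurog1-GFP cells. En1 was nearest to Lhx3 (0.09) and Sema3d (0.11). Lhx3, a LIM-homeodomain factor of motor neurons and V2 neurons, had 290 and 204 against 287 and 939. Nkx6-1 was nearest to Th (0.07) and Clstn2 (0.15), and Evx1 to the embryonic globin gene Hba-x (0.24) and Sct (0.30). Olig1 was nearest to Irs4 (0.03) and Pcdh7 (0.04), Foxa2 to Clmp (0.05) and Tmem119 (0.06), and Sim1 to Eprn (0.02) and Foxf1 (0.04). These distances rest on 4 arrays and describe likeness of pattern alone.

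Further genes of the ventral domains and of the hedgehog response were listed by name, 41 in all, of which 36 were measured and 28 tested. Of the 28, 1 passed and was lower in Atoh1-GFP cells, and 27 did not pass. Their differences were negative for 24 and positive for 4, against 6275 and 6465 of the 12740 genes tested. With the replicate block 9 were lower and 2 higher, where 6.51% of all genes passed, 475 lower and 354 higher. The 9 were Irx3, Pax6, Ntn1, Isl1, Lhx4 and 4 genes of the hedgehog response list, and the 2 were Foxa1 and Uncx. Several of the 9 are not confined to ventral cells, so the count is not one of ventral cell types. The median difference of the 28 genes was -0.82 (-0.40 within replicate 1 and -1.10 within replicate 2), against 0.01 over all genes tested. The gene that passed was Irx3, an Iroquois factor found from the intermediate neural tube ventrally to p2, with 572 and 647 in Atoh1-GFP cells against 4203 and 3783 (log2 difference -2.65, standard error 0.23, limma adjusted p = 0.014). Irx3 and Pax6, which had 541 and 565 against 1568 and 1951 (difference -1.61, adjusted p = 0.075; 0.0046 with the block), are also expressed by dorsal progenitors, and both differed by a similar amount within each replicate number.

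The 8 further genes listed for motor neurons also differed more within replicate 2 than within replicate 1. Their median difference was -0.29 within replicate 1 and -2.03 within replicate 2, and 7 of the 8 had a negative difference. On dNeurog1-GFP replicate 2, 2 of the 8 were at least 1 log2 unit above replicate 1 (2.66% of all genes). On Atoh1-GFP replicate 2, 3 were at least 1 log2 unit below replicate 1 (8.19% of all genes). Those 3 were Isl2, Chat and Slc5a7. Chat had 125 and 8.42 in Atoh1-GFP cells against 146 and 142 in dNeurog1-GFP cells. Slc5a7, the gene of the 8 with a positive difference (0.20), had 113 and 36.3 against 91.8 and 28.7, with replicate 1 the higher in both populations. Of these 8 genes, 0 passed by limma over all genes, 3 had an unadjusted p under 0.05 (8.59% of all genes) and 2 were lower with the block (6.51% passed in either direction). Lhx4, a LIM-homeodomain factor of motor neurons and V2 neurons, had 22.8 and 6.55 in Atoh1-GFP cells against 209 and 399 in dNeurog1-GFP cells (difference -2.81, limma adjusted p = 0.12; 0.014 with the block). Isl1 differed by -2.34 (adjusted p = 0.12; 0.018 with the block). Slc18a3, the vesicular acetylcholine transporter, had 104 and 57.0 against 179.7 and 330.1 (difference -1.33, adjusted p = 0.41). Dbx1, the homeodomain factor of p0 progenitors, had 283 and 115 against 374 and 738 and a difference of -1.38 (adjusted p = 0.41), with -0.37 within replicate 1 and -2.38 within replicate 2. Foxd3, a forkhead factor of V1 neurons that dI2 neurons also express, had 133 and 94.3 against 210.4 and 415 (difference -1.19, adjusted p = 0.42). Of the 3 genes of p2 and V2 that were tested 0 passed by limma, and 0 had an unadjusted p under 0.05. Tal1, a basic helix-loop-helix factor of V2 neurons, had 219 and 142 against 180.3 and 579, and the groups overlapped.

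The 8 measured genes under the filter on low values were Ferd3l, Nkx2-9, Gata3, Sox14, En2, Nkx6-2, Dbx2 and Hhip, and they were not tested. Nkx2-9, a p3 homeodomain factor, had 30.8 and 26.6 in Atoh1-GFP cells against 28.4 and 99.96 in dNeurog1-GFP cells. Gata3, a zinc finger factor of V2 neurons, had 6.22 and 3.78 against 11.7 and 72.7. Both, and Hhip, were brightest on the dNeurog1-GFP replicate 2 array. Sox14, En2 and Nkx6-2 were instead brightest on dNeurog1-GFP replicate 1, and Ferd3l and Dbx2 on Atoh1-GFP replicate 1.

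Foxa1, Ntn1 and Uncx differed by similar amounts within both replicate numbers, at 1.22 and 1.21, -1.52 and -1.70, and 0.96 and 0.91. Foxa1, a forkhead factor of the floor plate, had 201 and 208 in Atoh1-GFP cells against 67.7 and 71.2 in dNeurog1-GFP cells (difference 1.22, limma adjusted p = 0.36; 0.040 with the block). Uncx, a homeodomain factor listed here for V3, had 2123 and 2679 against 1078 and 1407 (difference 0.94, adjusted p = 0.28; 0.012 with the block). Shh, the ligand itself, had 228 and 278 against 100.0 and 202 (difference 0.69, adjusted p = 0.77). Ntn1, the axon guidance molecule netrin 1, which floor plate and ventricular cells make, went the other way, with 298 and 356 against 912 and 1225 (difference -1.61, adjusted p = 0.087; 0.0064 with the block).

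The hedgehog response list holds receptors, co-receptors and Gli factors as well as targets of the pathway, so its shared direction is not a measure of pathway output. All 8 of its genes that were tested had a negative difference. Their median was -0.72, or -0.85 for replicate 1 and -0.74 for replicate 2. By limma 0 of the 8 passed over all genes, while 3 had an unadjusted p under 0.05 (8.59% of all genes) and 4 passed with the block (6.51%). Gas1, a Shh co-receptor, had 3897 and 3365 in Atoh1-GFP cells against 8477 and 7759 (difference -1.16, adjusted p = 0.096; 0.0064 with the block). Ptch1, the Shh receptor and a target of the pathway, had 1465 and 2148 against 2280 and 3893 (difference -0.74, adjusted p = 0.63; 0.025 with the block). Gli1, the transcriptional target read most often as pathway output, had 143 and 84.5 against 125 and 230 and overlapped between the groups.

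**Figure D4:**
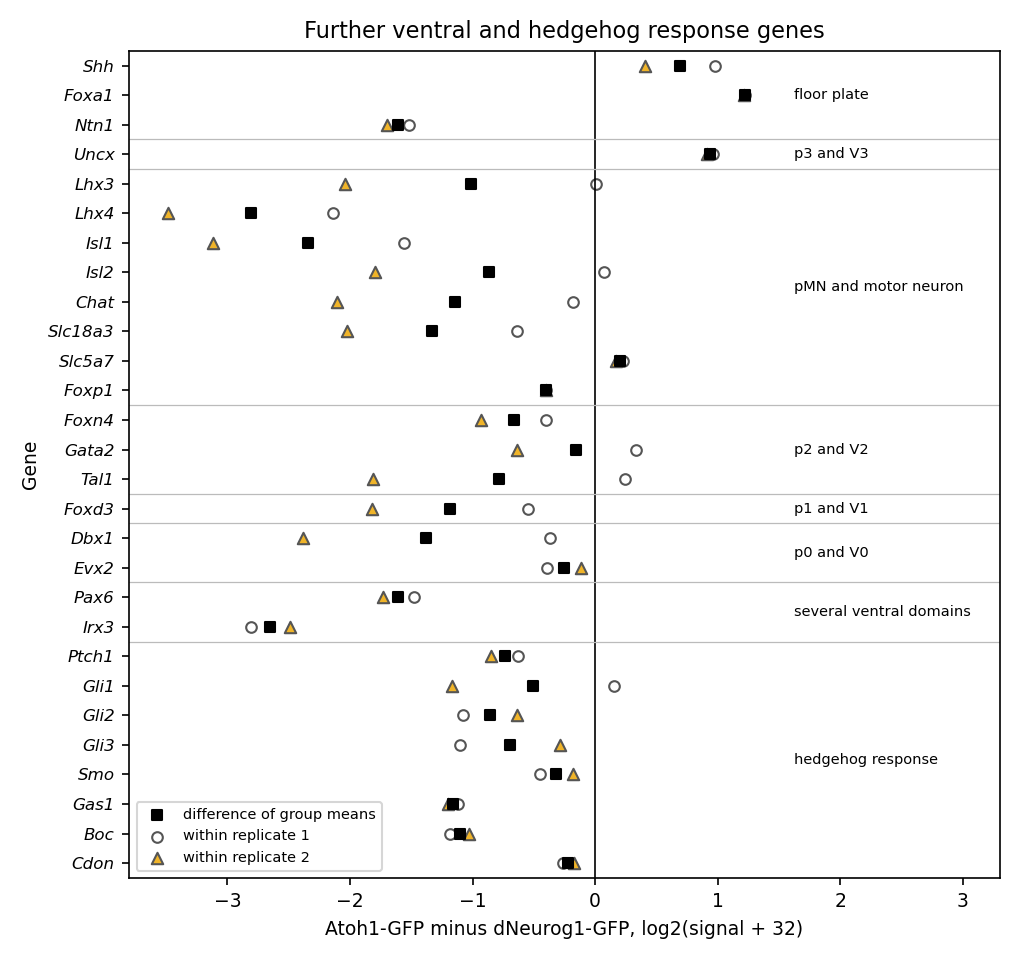
Log2 difference, Atoh1-GFP minus dNeurog1-GFP, of the 28 tested genes of the wider ventral list, grouped by domain; squares are differences of the group means (2 arrays each), circles and triangles the differences within the replicate 1 and replicate 2 arrays. In the motor neuron group most triangles lie to the left of their circles, whereas for Irx3, Pax6, Gas1, Foxa1 and Uncx the symbols lie close together.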

How the data were processed

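RNA of GFP-sorted cells was measured on 4 Affymetrix arrays, 2 per population. The authors deposited MAS5 signal intensities on a linear scale, per the submitters' processing notes, which name no version or target. Each array was set here to a trimmed mean of 500 over 45101 probe sets, 64 of them controls that were left out of tests. Of the rest, 34945 had 1 gene symbol in the platform annotation, 932 several and 9160 none. A gene was its brightest probe set, kept where the mean over 4 arrays reached the 40th percentile (63.5), and all 10 members passed. limma 3.58.1 in R 4.3.3 (lmFit, eBayes with an intensity trend) was fitted without a block on log2(signal + 32), with Benjamini-Hochberg adjustment. It had 2 residual degrees of freedom and a prior of 4.92. The code was tested on simulated data. Alternatives were other scalings, pseudocounts (16, 64), filters, probe set rules, no trend, the replicate block and leaving out each array. The members and lists were chosen with earlier results of these data known. Besides the members and dorsal markers, the genes named are the listed ventral genes that passed or differed most, those nearest in pattern, and examples chosen after their values were seen. The number of arrays limits the precision.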

Additional observations from a re-analysis of the deposited data

How the results depend on the processing

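The count of 28 genes became 13 on the deposited scale (infinite prior, 1 gene shared with the 28), 18 on one 75th percentile, 14 with no filter, 17 with the filter at the 50th percentile, 12 with the mean of all probe sets, 829 with the replicate block, and 0 without the intensity trend (limma, with 978 at an unadjusted p under 0.05). Of the members 1 passed on the deposited scale and 1 with the replicate block, Olig2 in both. Of the other ventral genes 11 passed with the block and 0 without the trend (13 at an unadjusted p under 0.05). Leaving out 1 array gave 153 to 380 genes, 1 to 3 members and 3 to 10 other ventral genes. Those fits have 1 residual degree of freedom and a prior of 153 or infinite, against 4.92, and the lone array is assumed to vary like the other group. The direction held for 8 members in the alternatives in which each was tested; Nkx2-2, Foxa2, En1 and Vsx1 did not reach the filter at the 50th percentile. It turned for Nkx2-2 when an array was left out (-0.70 to 0.15) and for Sim1 (-0.27 to 1.12, and -0.36 with its other probe set, an alternative added after seeing the data). No label ties equal replicate numbers to a shared litter or day. Across 12740 genes, which are not independent, the replicate 2 minus replicate 1 differences of the populations correlated at r = 0.66, and with 2 arrays each this cannot settle a pairing. Several members lay near or below the filter value, where a signal's distance from background is unknown.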
